A study of Homo sapiens with 16 samples.

Results

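Cohesin-CTCF sites without transcription factors are described here as they stood in mitosis and in S phase of LoVo, an established human cell line from a colon adenocarcinoma. The sites were selected on S-phase values: a site was an S-phase peak of RAD21 that overlapped an S-phase CTCF peak by at least 1 bp and no S-phase peak of HNF4A, KLF5 or MYC. Of the 27122 S-phase RAD21 peaks, 17987 (66.3%) met this rule. The lists came from chromatin immunoprecipitation and sequencing (ChIP-seq), with 1 library for each of RAD21, CTCF, HNF4A, KLF5, MYC and histone H3 in each phase. M-phase cells had been held for 12 h in 2 mM thymidine and then for 8 h in medium with 200 ng/ml nocodazole, a drug that blocks spindle assembly. S-phase cells had been stopped at the start of DNA synthesis by a double thymidine block, 12 h each time at 2 mM with 8 h of release between. All cells were of the 1 line, and all were fixed with 1% formaldehyde. The peak lists carry no expression values, so the colon origin of the cells could not be checked against marker genes.

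Cohesin is a ring-shaped complex, of which RAD21 is the subunit that closes the ring. It holds sister chromatids together after replication and, in interphase, extrudes DNA loops. CTCF is a zinc-finger protein that binds a long DNA motif and stops moving cohesin, so that both proteins pile up at the same places and mark loop anchors and domain borders. When cells enter mitosis, loops and domains are lost and much cohesin leaves chromosome arms. HNF4A is a nuclear receptor of gut and liver cells, KLF5 is a Krüppel-like factor found in dividing cells of the gut lining, and MYC is a growth-promoting helix-loop-helix factor. The sites described here lack all 3 of these factors in S phase.

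The M-phase ChIP libraries of RAD21 and CTCF held 16510005 and 14186052 tags after removal of repeats, against 7531890 and 7520364 in S phase. The M-phase libraries were thus 2.19 and 1.89 times as deep. With 1 library per protein and phase there was no spread between replicates, and no test across samples was possible. Intervals are 95% intervals over sites and cover counting error only. The labels give 2118 peaks to the rabbit IgG control of M phase, and the KLF5 list of M phase had 2118 peaks. Whether these 2 libraries were exchanged was not tested. That control was used for the M-phase RAD21, HNF4A, KLF5, MYC and H3 lists, whereas M-phase CTCF was called against goat IgG. The S-phase CTCF alignments came from a differently named set than the other S-phase alignments, per the file headers, and whether both were the same culture is not stated.

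The S-phase values that chose the sites were as follows, as a description. The RAD21 peaks were between 298 and 2978 bp wide, with a median of 924 bp. They held 9 to 218 tags, with a median of 24, at a fold enrichment over IgG of 2.68 to 89.04 and a median of 12.91. The MACS score, which is -10 times the log10 of the p-value of a peak and starts at 50, had a median of 178 for RAD21 and 196 for the CTCF peak at the same site. Nearly every site, 17983 of 17987, met 1 CTCF peak, and 4 met 2 of them. Because 181 CTCF peaks held 2 sites each, the sites shared 17810 CTCF peaks. The RAD21 peak lay wholly inside the CTCF peak at 13700 sites (76.2%). RAD21 and CTCF summits were a median of 47 bp apart and within 100 bp at 14802 sites (82.3%). Histone H3 peaks, the chromatin control, were rare, at 8 sites in M phase (0.0445%) and at 76 in S phase (0.423%). Over all S-phase RAD21 peaks the shares were 0.0516% in M phase and 0.457% in S phase, close to those of the sites.

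The edge of the rule can be seen in a few sites. At 60 sites the nearest S-phase factor peak began within 100 bp, and these had a median RAD21 score of 154. Another 37 cohesin-CTCF peaks were left out for an overlap with a factor of at most 100 bp, and their median score was 110. On the side of CTCF, 8 sites overlapped it by at most 100 bp with a median RAD21 score of 64.1, and 5 factor-free RAD21 peaks ended within 100 bp of a CTCF peak with a median score of 69.1.

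Most of the sites were found again in mitosis, with both proteins. An M-phase RAD21 peak overlapped 14843 of the 17987 sites (82.5%, 95% interval 82.0 to 83.1%), against 69.7% of all S-phase RAD21 peaks. An M-phase CTCF peak overlapped 14082 of them (78.3%, 77.7 to 78.9%), against 65.6% of all S-phase RAD21 peaks. Both proteins were listed in M phase at 12319 sites (68.5%, 67.8 to 69.2%), where the share over all RAD21 peaks was 55.3%. RAD21 alone was listed at 2524 sites (14.0%, against 14.5% of all), and CTCF alone at 1763 sites (9.80%, against 10.4% of all). At 1381 sites (7.68%, against 19.9% of all) neither protein had an M-phase peak.

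These shares depended on the M-phase threshold. The labels speak of peaks with a false discovery rate (FDR) under 5%. However, 15474 of the 24391 M-phase CTCF peaks and 8659 of the 22966 M-phase RAD21 peaks had a deposited FDR of 5% or more. So did 8284 of the 28474 S-phase CTCF peaks, and 0 of the S-phase RAD21 peaks. Control depth differed too. The RAD21 library held 16510005 tags in M phase over 6875106 in its control, and 7531890 in S phase over 10753369. For CTCF it was 14186052 over 4222390 in M phase and 7520364 over 3658103 in S phase. The part of this in the FDR was not tested. All were used, and the S-phase lists that chose the sites were not limited by FDR in any alternative. With M-phase peaks limited to an FDR under 5% 63.3% of the sites had RAD21, 35.2% had CTCF and 28.0% had both. With an M-phase score of at least 100, both were present at 41.8%. Few sites without an overlapping M-phase peak had one nearby, and smaller shifts were already counted as overlap. Of the 3144 sites without an overlapping M-phase RAD21 peak, 104 (3.31%) had one within 1000 bp, and so did 107 of the 3905 sites (2.74%) without an overlapping M-phase CTCF peak.

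**Figure D1:**
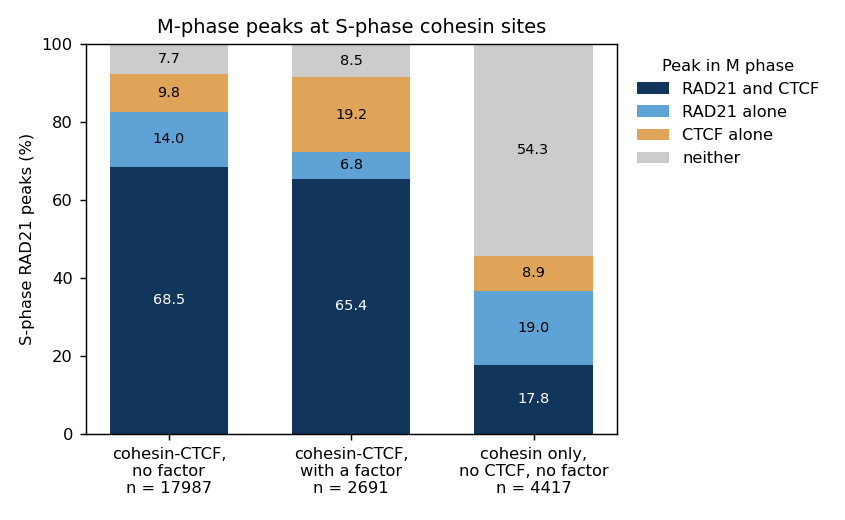
Stacked bars give the share of S-phase RAD21 peaks, in percent, at which M-phase lists held both RAD21 and CTCF, RAD21 alone, CTCF alone or neither, for 3 classes of site. Both proteins were listed at 68.5% of cohesin-CTCF sites without factors, 65.4% of those with a factor and 17.8% of cohesin sites without CTCF or factors.

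Among sites with both proteins in M phase, the common outcome, those of highest S-phase RAD21 enrichment are given here. Positions are on the human build hg18. At chr1:208550484-208551645 RAD21 had 97 tags in M phase (5.88 per 1000000 library tags) and 83 in S phase (11.0 per 1000000), and CTCF had 43 tags in M phase and 52 in S phase. At chr7:98277123-98277717 RAD21 had 124 tags in M phase (7.51 per 1000000) and 85 in S phase (11.3 per 1000000), with 71 CTCF tags in M phase and 81 in S phase. The site chr11:74528846-74530040 held 125 RAD21 tags in M phase and 92 in S phase, and 49 CTCF tags in M phase against 115 in S phase. All 3 therefore had more RAD21 tags in M phase as counted and fewer per 1000000 tags of the deeper M-phase library. They were picked for high S-phase values, which favours a lower M-phase value per 1000000 tags. The next site, chr11:12941828-12942948, had 119 RAD21 tags in M phase (7.21 per 1000000) and 75 in S phase (9.96 per 1000000), the same pattern.

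Strong sites could also be missing in M phase. The leading site with neither protein within 1000 bp in M phase was chr11:100804479-100805445, with 36 RAD21 and 27 CTCF tags in S phase. It was followed by chr4:173359798-173360822 with 27 RAD21 and 24 CTCF tags, chr10:69127182-69128205 with 24 and 22, and chr4:7514720-7515774 with 34 and 45. There were 1314 such sites among the 17887 on chromosomes 1 to 22 and X that no H3 peak overlapped.

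RAD21 without CTCF within 1000 bp in M phase was led by chr1:28056920-28058084. There RAD21 had 63 tags in M phase and 59 in S phase, and CTCF had no M-phase peak where S phase had 78 tags. At chr14:95096776-95097631 RAD21 had 82 tags in M phase and 48 in S phase, and the CTCF peak of 122 S-phase tags had no counterpart in M phase. The converse was led by chr19:5498659-5499347, where CTCF had 16 tags in M phase and 44 in S phase and RAD21 had 25 tags in S phase but no M-phase peak. At chr4:82607206-82608127 CTCF was listed with 48 tags in M phase and 42 in S phase, while the 31 S-phase RAD21 tags had no M-phase peak. At chr4:148159284-148160466 an S-phase RAD21 peak of 52 tags had none in M phase, although CTCF was listed, with 33 tags in M phase and 40 in S phase. Single sites thus took each of the 4 outcomes at S-phase scores well above the cutoff.

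The M-phase outcome ran with S-phase strength. By S-phase RAD21 score the sites fell into 5 groups of 3564 to 3631 sites, with bounds at 94.6, 145, 216 and 335. RAD21 was found in M phase at 55.4% of the weakest group (53.8 to 57.1%), then at 74.0%, 88.5% and 95.6%, and at 99.2% of the strongest (98.8 to 99.5%). CTCF was found at 61.9% of the weakest of these groups and at 94.1% of the strongest. Divided by S-phase CTCF score, CTCF was found at 53.2% of the weakest group (51.5 to 54.8%) and 96.1% of the strongest (95.4 to 96.7%), and RAD21 at 66.0% and 94.1%. Neither protein was left at 21.9% of the group of lowest RAD21 score and at 0.139% of the highest, which is 5 of 3598 sites.

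**Figure D2:**
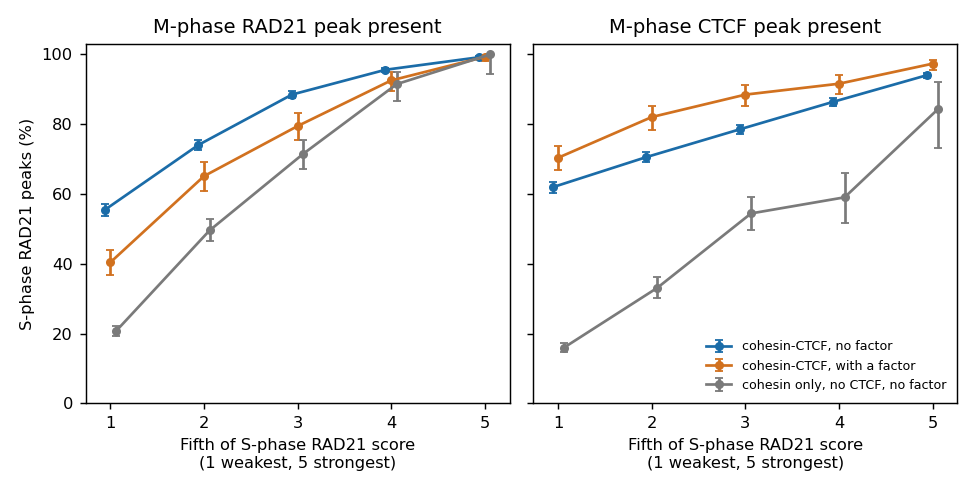
Points give the percent of S-phase RAD21 peaks with an M-phase RAD21 peak (left) or CTCF peak (right) in each of the 5 groups of S-phase RAD21 score, with 95% Clopper-Pearson intervals, for 3 classes of site. For sites without factors the RAD21 share climbs with S-phase strength, 55.4% in group 1 and 99.2% in group 5.

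Each protein's M-phase share spanned a wider range over its own S-phase score than over its partner's. In the group of lowest RAD21 score, RAD21 was found at 45.6% of sites with the weakest CTCF peaks and 68.6% of those with the strongest. In the group of highest RAD21 score the same contrast was 97.1% and 99.7%. For CTCF, the group of weakest CTCF peaks gave 41.0% where RAD21 was weakest and 79.3% where it was strongest, and the group of strongest CTCF peaks gave 88.9% and 98.1%. Where both scores were in their lowest group, 1306 sites, both proteins were found at 22.8% and neither at 36.3%. Where both were in their highest, 1546 sites, both were found at 97.9% and neither at 0 sites, which allows a share of up to 0.238%. The S-phase scores of the proteins were themselves related over the 17987 sites, with a Spearman rho of 0.41. This is a description, since each protein's points share 1 library.

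**Figure D3:**
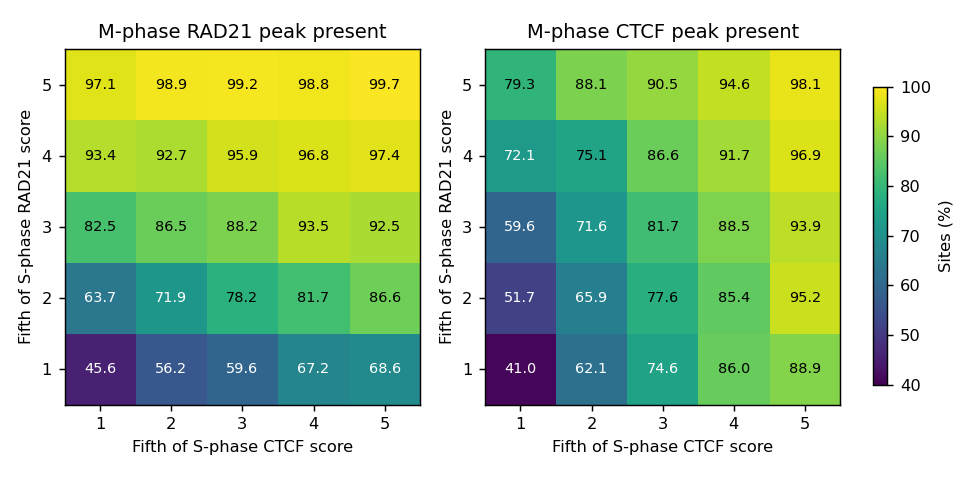
Each square gives the percent of cohesin-CTCF sites without factors that had an M-phase RAD21 peak (left) or CTCF peak (right), by the 5 groups of S-phase CTCF score across and of RAD21 score upwards. Colour runs over the same percent scale, with 45.6% (RAD21) and 41.0% (CTCF) in the lower left square and 99.7% and 98.1% in the upper right.

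RAD21 was found in mitosis more often where CTCF was found, also within score groups. RAD21 was found at 87.5% of the sites that had an M-phase CTCF peak and at 64.6% of those that had none, a difference of 22.8 percentage points (Newcombe 95% interval 21.3 to 24.5). Compared within the 25 combinations of RAD21 and CTCF score groups and averaged over them, the difference was 11.3 points (9.64 to 13.0). Such standardised differences rest on the observed score, which is itself measured with error. Scores also differ within a group, so strength is only partly evened out.

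At sites found in both phases, tags per 1000000 library tags were lower in M phase for both proteins, and by more for CTCF than for RAD21. A matched pair of RAD21 peaks, 1 per phase, was found at 14736 sites, with a median of 2.73 tags per 1000000 library tags in M phase, over a width of 1095 bp, and 3.58 in S phase, over 957 bp. The median log2 ratio of M over S phase was -0.42 (-0.43 to -0.41), and 19.7% of sites had a ratio above 0. The median over all S-phase RAD21 peaks matched in this way was -0.43, and 19.7% of them had a ratio above 0. For CTCF, 13712 peaks at these sites had a median of 2.47 tags per 1000000 in M phase over 910 bp and 7.05 in S phase over 1464 bp, with a median log2 ratio of -1.55 (-1.56 to -1.54). Of these, 222 (1.62%) had a ratio above 0. CTCF was lower in M phase at the other classes of CTCF peak too. The median log2 ratio was -1.27 at CTCF peaks without cohesin or factors, with 2.99% above 0. At those with cohesin and a factor it was -2.13, with 0.146% above 0. The denominator of each ratio holds S-phase tags of peaks that were chosen in S phase, so the ratios are not independent of that choice. Only peaks matched in both phases entered. The part of both choices in the ratios was not tested.

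Called width took part in these values. Per 1000 bp of called peak the median log2 ratio was -0.61 for RAD21 and -0.85 for CTCF, so RAD21 was lower and CTCF less low than by tags alone. The fragment length that MACS estimated was 226 bp in M phase and 213 bp in S phase for RAD21, and 191 bp in M phase and 308 bp in S phase for CTCF, each in the direction of the widths. Its part in the ratio was not tested. Tags per 1000000 also depend on how much of a library lies outside peaks, and no spike-in is named in the labels.

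**Figure D4:**
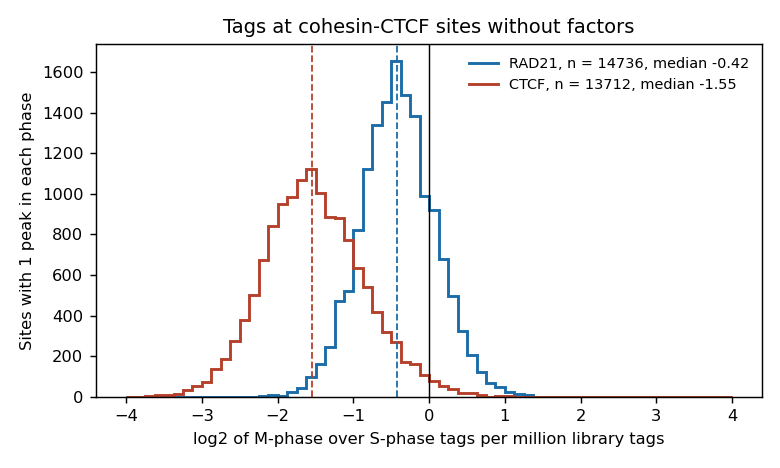
Outlines count cohesin-CTCF sites without factors with 1 peak in each phase (vertical axis) by the log2 ratio of M-phase over S-phase tags per 1000000 library tags, for RAD21 and CTCF, with dashed lines at the medians. The RAD21 median lies at -0.42 and the CTCF median at -1.55.

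The ratio was lower in groups of higher S-phase score, a comparison in which S-phase tags enter both the score and the denominator of the ratio. Sites in the lowest group of RAD21 score had 1.82 tags per 1000000 in M phase and 1.86 in S phase, with a median log2 ratio of -0.02, and those in the highest had 4.24 in M phase and 6.37 in S phase, with a ratio of -0.62. Only sites found in M phase enter here, 1986 in the lowest group and 3535 in the highest. The part of this selection and of the shared S-phase tags in the trend was not tested. The CTCF ratio was -1.01 in the lowest group of CTCF score and -1.92 in the highest. RAD21 ratios were -0.42 where an M-phase CTCF peak was present and -0.43 where none was listed. RAD21 summits moved by a median of 38 bp between phases and lay within 100 bp of each other at 87.3% of sites, and CTCF summits by 33 bp and at 91.3%. At the 12227 sites where M-phase RAD21 and CTCF peaks overlapped, the summits of the proteins were a median of 35 bp apart in M phase and 44 bp in S phase.

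The sites of highest ratio had few S-phase tags, and those of lowest ratio had more than the median of 24. S-phase tags are the denominator of the ratio, so ranking by it favours this. The highest RAD21 ratio was at chr5:92942749-92943310, where 80 tags in M phase stood against 10 in S phase, a log2 ratio of 1.87. It was followed by chr17:50781042-50781593 with 68 tags in M phase and 11 in S phase. The lowest was at chr10:64246650-64248214 with 18 tags in M phase and 38 in S phase, a log2 ratio of -2.21, then chr2:25242025-25243149 with 21 in M phase and 44 in S phase. CTCF had M-phase peaks at all 4 of these sites. The weakest site of all with both M-phase peaks, chr1:157450610-157451244, had 34 RAD21 tags in M phase against 9 in S phase at a score of 50.1.

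Factor-free cohesin-CTCF sites were compared with the 2691 cohesin-CTCF sites that held a peak of HNF4A, KLF5 or MYC in S phase. RAD21 was found in M phase at 82.5% of the factor-free sites and 72.2% of the sites with a factor, a difference of 10.3 points (8.53 to 12.1). Standardised over the 25 combinations of RAD21 and CTCF score it was 9.53 points (7.97 to 11.1). It was 9.38 points against sites with HNF4A, 11.7 against sites with KLF5 and 11.2 against sites with MYC, standardised in the same way, and these sets of sites overlap one another. In the weakest of the 5 RAD21 score groups the shares were 55.4% of factor-free sites and 40.4% of sites with a factor, and in the strongest 99.2% of factor-free sites and 99.3% of sites with a factor. Where S-phase RAD21 and CTCF peaks had to share at least 50% of each, the unstandardised difference was 3.94 points (1.92 to 6.09).

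CTCF differed in the opposite direction by overlap, and the size and sign of its difference depended on the rule. An M-phase CTCF peak overlapped 78.3% of the factor-free sites and 84.7% of the sites with a factor, a difference of -6.36 points (-7.81 to -4.83), or -3.21 standardised (-4.57 to -1.85). It was -14.1 points with an M-phase score of at least 100 and -18.0 with an M-phase FDR under 5%. With RAD21 and M-phase CTCF summits required to lie within 250 bp, the difference was -0.994 (-2.64 to 0.719) and its standardised value turned to 1.84 (0.284 to 3.39). Followed from the CTCF peaks themselves, M-phase CTCF was present at 78.5% of the peaks at factor-free sites and 86.7% of those at sites with a factor, a difference of -8.24 points, or -3.64 standardised (-4.95 to -2.34). With summits within 250 bp the CTCF peaks gave 77.7% at factor-free sites and 82.4% at sites with a factor, a difference of -4.70 points (-6.26 to -3.05), or -0.225 standardised (-1.69 to 1.23). The RAD21 difference grew under the summit rule, to 14.6 points and 13.5 standardised. Factor-free sites had a median RAD21 width of 924 bp in S phase and the wider sites with a factor 985 bp, and the part of width in the overlap was not tested.

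Cohesin sites without CTCF or factors were found far less often. RAD21 was found in M phase at 82.5% of cohesin-CTCF sites and at 36.7% of the 4417 sites without CTCF, a difference of 45.8 points (44.2 to 47.3). The median RAD21 score was 178 at cohesin-CTCF sites and 82.1 at the weaker sites without CTCF, and standardised over groups of RAD21 score the difference was 28.7 points (27.1 to 30.4). The classes met at the top of the range, with 99.2% of 3598 cohesin-CTCF sites in the strongest group. There RAD21 was found at all 64 sites without CTCF (100%, 94.4 to 100%). Of those 64 sites, 54 (84.4%) had an M-phase CTCF peak, as did 1180 (26.7%) of the 4417. The absence of CTCF in this class thus refers to the S-phase list alone. Neither protein was left at 7.68% of cohesin-CTCF sites and 54.3% of the sites without CTCF. On the side of CTCF, an M-phase peak was present at 78.5% of the 17810 CTCF peaks at these sites and at 41.3% of the 6614 CTCF peaks with neither cohesin nor a factor, against 69.4% of all S-phase CTCF peaks. That difference was 37.2 points (35.9 to 38.6), or 21.7 standardised over groups of CTCF score (20.2 to 23.1). It was 24.7 points when all lists were limited to a score of at least 100.

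Peaks of the 3 factors were rare at these sites in mitosis. Any of HNF4A, KLF5 or MYC had an M-phase peak at 69 of the 17987 sites (0.384%, 0.299 to 0.485%), against 3.59% of all S-phase RAD21 peaks and 14.5% of the cohesin-CTCF sites with a factor in S phase. The share over all RAD21 peaks includes the sites that the rule left out for a factor peak in S phase. KLF5 was listed at 43 sites (0.239%, against 1.12% of all RAD21 peaks), MYC at 20 (0.111%, against 1.49%) and HNF4A at 7 (0.0389%, against 1.38%). One site held 2 of the factors, and none held all 3. Cohesin sites without CTCF or factors gave a share of 0.566% (0.367 to 0.834%), and the intervals of the 2 factor-free classes overlapped.

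The M-phase factor lists held mostly peaks with a deposited FDR of 5% or more, at these sites as elsewhere. The FDR was 5% or more at all 2413 HNF4A peaks, at 1888 of 1974 MYC peaks and at 1722 of 2118 KLF5 peaks, so a limit of 5% left no HNF4A and few MYC peaks to be found anywhere. Under that limit the share was 0%, and with an M-phase score of at least 100 it was 0.00556%. Without the M-phase KLF5 list, an alternative added after seeing the data, it was 0.150%. The factor peaks at these sites had a median of 11 tags for KLF5, 20 for MYC and 16 for HNF4A. Their median fold enrichment was 10.42 for KLF5 against 10.81 over its whole list, 6.71 against 7.48 for MYC and 8.63 against 8.71 for HNF4A. None of the 3 factors had its own S-phase peak within 1000 bp of such a site. Any factor had one within 1000 bp at 3 of the 69 (4.35%), and at 476 of all 17987 sites. The rule itself left out sites that overlapped an S-phase factor peak, so these low counts were largely set by the rule.

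By S-phase RAD21 enrichment, the first of these sites was chr2:46541505-46542828, with an M-phase KLF5 peak of 10 tags. RAD21 there had 88 tags in M phase and 80 in S phase. At chr3:185760983-185762681 an M-phase MYC peak of 16 tags lay with 94 RAD21 tags in M phase and 81 in S phase. KLF5 had 9 M-phase tags at chr17:6889513-6890729, and MYC had 21 at chr12:94034437-94035634. All 4 sites had M-phase RAD21 and CTCF peaks, and none had an S-phase factor peak by the rule.

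Distance to a factor peak was set beside the outcome. The nearest S-phase factor peak lay a median of 36484 bp from a site. RAD21 was found in M phase at 76.5% of the 476 sites with a factor peak within 1000 bp, at 82.0% of those with one farther off but within 10000 bp, at 82.9% of those with one beyond that but within 100000 bp, and at 82.6% of the 4335 sites farther away. Against all other sites in the same RAD21 and CTCF score groups, the nearest group differed by -3.78 points (-7.27 to -0.284). The farthest differed by 3.79 points (2.51 to 5.07). The groups between had -2.34 points (-3.65 to -1.04) up to 10000 bp and -0.898 (-1.94 to 0.145) up to 100000 bp. For CTCF the same differences, from the nearest to the farthest group, were 0.544 (-2.89 to 3.98), 1.58 (0.251 to 2.91), -1.27 (-2.42 to -0.111) and 0.288 (-1.20 to 1.78), with no single direction over distance.

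The offset of RAD21 from CTCF in S phase also went with the outcome. Where the summits lay within 25 bp, RAD21 was found in M phase at 85.5% of 5129 sites and CTCF at 80.7%. Where they lay more than 200 bp apart, 611 sites, the shares were 65.5% and 65.1%. These distant sites were weaker, with a median RAD21 score of 107 against 193. Against other sites in the same score groups they were also lower. The differences were -8.98 points for RAD21 (-12.5 to -5.45) and -10.3 points for CTCF (-13.9 to -6.74).

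Chromosomes differed in both shares. RAD21 was found in M phase at 86.7% of 392 sites on chromosome 13 and 85.9% of 781 on chromosome 8, against 75% of 336 on chromosome 22 and 76.4% of 589 on chromosome 19. CTCF was found at 86.4% on chromosome 19, the highest of the 23 chromosomes compared, and 75% on chromosome 13. The X chromosome had the lowest share of each, 70.6% for RAD21 (65.6 to 75.3%) and 53.7% for CTCF (48.3 to 59.0%) over 354 sites. Its sites were weaker in S phase, with a median RAD21 score of 128 and CTCF score of 123, and copy number was not measured.

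Part of this remained within groups of S-phase score. Sites in the same score groups on all other chromosomes were the comparison. X had differences of -14.6 points for CTCF (-19.6 to -9.55) and -4.36 points for RAD21 (-9.11 to 0.389). Chromosome 19 had differences of -5.75 for RAD21 (-8.89 to -2.60) and 5.19 for CTCF (2.49 to 7.90), and chromosome 22 of -7.97 for RAD21 (-12.3 to -3.66). For RAD21 the differences were also below 0 on chromosomes 16 (-3.76) and 17 (-4.06), and they were above 0 on chromosomes 4 (4.54), 8 (5.18) and 13 (5.68). The intervals were not adjusted for 23 chromosomes. They lay above 0 on 3 chromosomes and below 0 on 4 for RAD21, and above on 2 and below on 3 for CTCF.

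**Figure D5:**
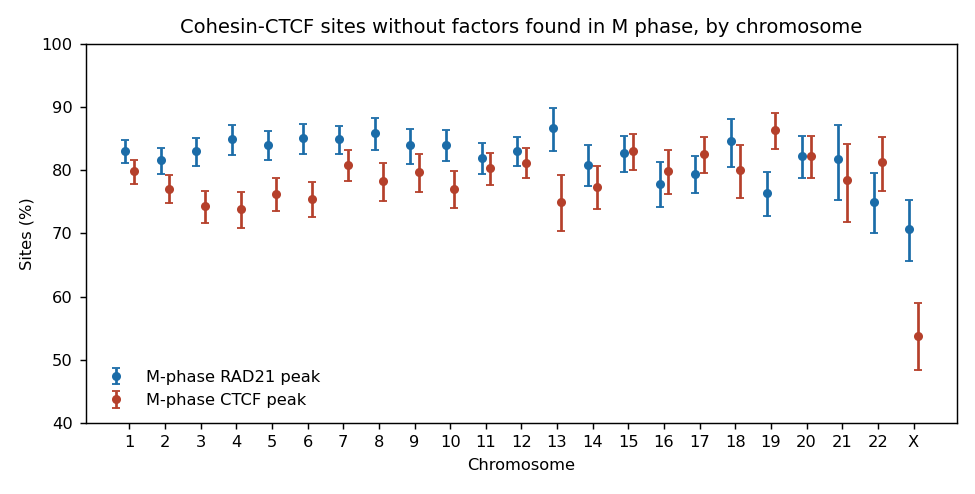
Points give the percent of cohesin-CTCF sites without factors on each chromosome that had an M-phase RAD21 peak (blue) or CTCF peak (red), with 95% Clopper-Pearson intervals; the vertical axis starts at 40%. The X chromosome has the lowest value of each, 70.6% for RAD21 and 53.7% for CTCF, and on chromosome 19 CTCF (86.4%) stands above RAD21 (76.4%).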

How the data were processed

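The 16 samples were ChIP-seq libraries, 12 with a peak list and 4 IgG controls, each made with 5 µg of antibody and grouped by their titles. Per the submitters' processing notes, reads passed through CASAVA 1.4, BWA on build hg18 and MACS 1.4. Per the file headers, MACS 1.4.0rc2 called peaks on merged alignments against IgG at a p-value cutoff of 1e-05 with at most 1 tag per position. The deposited tag counts are raw whole numbers. As the score the authors deposited -10 times the log10 p-value, the deposited fold enrichment is a ratio over the local background, and the deposited FDR is in percent. Peak starts, ends and summit offsets are deposited hg18 positions in bp.

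Lists were compared by overlap of at least 1 bp in Python 3.11.15 with pandas 2.3.3, scipy 1.17.1 and numpy 2.4.6. Shares have exact Clopper-Pearson 95% intervals, differences Newcombe intervals, medians order-statistic intervals. Standardised differences compare shares within 5 equal groups of each S-phase score, with the smaller class as the weight, using cells with at least 5 sites of each, with normal intervals. Tags were divided by filtered library tags and ratios taken as log2. No p-value was computed, since each target had 1 library per phase. Of these steps, the overlap rule and the value of a difference standardised over groups of RAD21 score were tested on simulated data. The simulated share was constant within each score group, so that test cannot show how much strength remains uneven within a group. Combinations of RAD21 and CTCF score were not simulated. Sites, classes and lists were chosen with earlier results of these data known. Named sites follow a rule: outside H3 peaks, the 4 of highest S-phase RAD21 fold enrichment with each M-phase outcome or with an M-phase factor peak, the 3 of highest and lowest RAD21 ratio and the 3 weakest with both proteins. Some of these are named. An siRNA against RAD21 is named in the series' design text but in no label. No hg18 sequence or annotation was used here, so sites carry no gene names.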

Additional observations from a re-analysis of the deposited data

Results flagged for a closer look

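Opposite differences for RAD21 and CTCF were seen between the same classes of site. An M-phase RAD21 peak was more frequent at cohesin-CTCF sites without a factor than at those with one, by 10.3 percentage points, while an M-phase CTCF peak was less frequent there, by -6.36 points. Each phase had 1 library per protein, so this contrast between RAD21 and CTCF was not tested across samples. The CTCF difference was -0.994 with summits within 250 bp, with an interval that spans 0, and its standardised value was 1.84 (0.284 to 3.39). The RAD21 difference was 14.6 under that rule. Where S-phase RAD21 and CTCF peaks shared at least 50%, the differences were 3.94 for RAD21 (1.92 to 6.09) and -8.53 for CTCF.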

How the results depend on the processing

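Of 83 values under the alternatives tried, none changed sign, and 35 stayed within the 95% interval of the main value. These did not include the standardised CTCF difference from sites with a factor, which was -3.21 and turned to 1.84 with summits within 250 bp. The other 48 are given here. With at least 50% of both peaks shared between lists, the sites had M-phase RAD21 at 80.8%, CTCF at 76.4%, both at 65.8% and a factor at 0.167%. Under that rule the difference from sites with a factor was 13.0 points for RAD21 and -0.806 for CTCF, the difference of CTCF peaks from those without cohesin or factors was 31.1 points, and the CTCF log2 ratio was -1.43. With summits within 250 bp the shares were 81.7%, 77.2%, 67.2% and 0.178%, and the differences from sites with a factor were 14.6 for RAD21 and -0.994 for CTCF.

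An M-phase score of at least 100 gave 63.0% for RAD21, 55.2% for CTCF, 41.8% for both and 0.00556% for a factor, log2 ratios of -0.38 for RAD21 and -1.51 for CTCF, and a CTCF difference from sites with a factor of -14.1 points. An M-phase FDR under 5% gave 63.3%, 35.2%, 28.0% and 0%, ratios of -0.38 and -1.49, a CTCF difference of -18.0 from sites with a factor and of 26.8 from CTCF peaks without cohesin or factors. Shares are lower here by construction, since the M-phase lists are shorter, and the cause of the changes in differences and ratios was not tested. A score of at least 100 in both phases gave 77.6%, 67.3%, 55.9% and 0.0160%, ratios of -0.43 and -1.61, a RAD21 difference of 34.3 from cohesin sites without CTCF, and CTCF differences of 24.7 and -14.1.

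With S-phase RAD21 and CTCF peaks sharing at least 50%, RAD21 was found at 84.4% and both at 69.7%, the RAD21 difference was 3.94 from sites with a factor and 47.7 from sites without CTCF, the CTCF difference from sites with a factor was -8.53, and the ratios were -0.45 and -1.52. The cause was not tested. Ratios per 1000 bp were -0.61 and -0.85. Without the M-phase KLF5 list the factor share was 0.150%. That restriction and all alternatives for the CTCF difference from sites with a factor were chosen after seeing the data.

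No paired analysis was possible because each protein had 1 library in each phase. Leaving out a replicate was not possible either. The M-phase RAD21 and CTCF libraries were 2.19 and 1.89 times as deep as those of S phase, and the part of depth in the shares was not tested. Intervals take sites as independent and cover counting error only. Phase, culture and library cannot be told apart.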

Other observations

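Seen from mitosis, the factor-free cohesin-CTCF sites made up most of both lists. They were overlapped by 14819 of the 22966 M-phase RAD21 peaks (64.5%) and by 14094 of the 24391 M-phase CTCF peaks (57.8%). These shares were no higher than in S phase, where the sites were 66.3% of RAD21 peaks and met 62.5% of CTCF peaks. Among the 1000 M-phase peaks of highest score the shares were 85% for RAD21 (82.6 to 87.2%) and 63.6% for CTCF (60.5 to 66.6%). The shares among the 1000 S-phase peaks of highest score were not computed. Of the M-phase factor lists, 43 of 2118 KLF5, 20 of 1974 MYC and 7 of 2413 HNF4A peaks overlapped such a site, and 8 of 542 H3 peaks did. At sites with 1 peak in each phase, S-phase and M-phase scores had a Spearman rho of 0.63 for RAD21 (14736 sites) and 0.46 for CTCF (13712 peaks), as a description.

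The sites lay a median of 35278 bp from the nearest other such site, and 3821 of them (21.2%) had one within 10000 bp. For adjacent pairs of sites less than 10000 bp apart, an M-phase CTCF peak was found at 84.5% of sites whose next neighbour had one. Where the neighbour had none the share was 77.0%, and within score groups the difference was 5.82 points (1.26 to 10.4). Close neighbours can be overlapped by 1 and the same M-phase peak, and 274 of these 2034 pairs lay within 1000 bp. At gaps of 5000 to 10000 bp, an alternative added after seeing the data, the difference was 1.92 points (-5.48 to 9.32). For RAD21 at gaps up to 10000 bp the shares were 83.4% where the neighbour had an M-phase RAD21 peak and 85.6% where it had none. Within score groups the difference was -2.36 points (-6.39 to 1.66). At gaps over 50000 and up to 200000 bp the standardised difference was 4.01 points for RAD21 (1.88 to 6.15) and 1.13 for CTCF (-1.03 to 3.29).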
